A study of Mus musculus with 14 samples.

Results

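Of the 42006 probes on a mouse oligonucleotide array, 150 had higher ratios to a common reference in embryonic stem (ES) cells after 48 h in LY294002 than in both untreated day 3 cultures, with little change after 48 h in retinoic acid (RA). They are described here. Each is a 60-base designed oligonucleotide known by an identifier and its sequence. No file used here ties a probe to a gene, so gene names are not given and markers of ES cells could not be checked. The 150 were chosen from measured values. A probe had to be well above background in the sample channel on both LY294002 arrays, which left 27306 probes. Its mean log2 ratio in RA also had to lie within 0.3 of control day 3, which left 15548. These were ranked by the smaller of 2 differences, LY294002 minus control day 3 and LY294002 minus standard day 3, on the log2 scale of the scanner software's own ratios (called the selection scale below), and the top 150 were kept.

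The study hybridised RNA of 7 groups of mouse ES cells (strain 129/Sv, or 129SvEv-Tac for day 7 colonies) to 14 2-colour Agilent arrays, 2 arrays a group, with the sample in Cy3 and a common reference in Cy5. The reference was RNA of 11 pooled mouse cell lines mixed with ES cell RNA at 2:1. The LY294002 group was line MC1-ZE3, plated for 24 h in LIF-containing ES medium and then kept in LY294002 for 48 h (labelled 10 nM, in doubt as a unit). The RA group was the same line given 50 nM all-trans RA for 48 h in the same scheme. Day 4 colonies came from line MC1-ZE16 and day 7 colonies from MC1, both in 50 nM RA, and were called pluripotent and picked by hand according to the design text. The extraction label speaks of pooled picked colonies for every group except day 7 colonies, where it speaks of a well, so the labels do not settle how cells were collected. Passage 10 cells were MC1-ZE3 that had 7 days of RA and then 10 passages without it, collected on day 3. Control day 3 and standard day 3 were both untreated MC1-ZE3 cells, with control day 3 grown for the treatment experiment. Day 4 and day 7 colonies therefore differ in line as well as in time, and both differ in line from passage 10. No label says that the 2 arrays of a group were separate cultures, so p-values measure the spread between arrays, which may be technical.

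LY294002 blocks phosphoinositide 3-kinase, a lipid kinase that passes growth factor and insulin signals on to AKT and from there to FOXO factors, GSK3 and mTOR. In mouse ES cells the pathway acts beside LIF to support self-renewal and growth. RA is a vitamin A derivative that acts through nuclear receptors and promotes differentiation of ES cells.

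There were 6 slides and 4 scan days, and 56.1% to 75.1% of their spots were well above background in Cy3. Both LY294002 arrays had slide 6 to themselves, so slide and LY294002 cannot be told apart. They shared a scan day with the RA and control day 3 arrays, whereas the standard day 3 arrays were scanned on other days. The 2 arrays of a group limit the precision of every value below.

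Values across groups are given below for probes with these sequences. They were taken from the top of the ranking, not all of it, or from the largest changes in the tests. The capitals in the first 2 mark a run of 43 bases that both probes share, so the 2 probes read overlapping stretches of one sequence and are not independent of each other.
Z00040364-1: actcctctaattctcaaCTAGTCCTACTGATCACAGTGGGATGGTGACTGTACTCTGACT
Z00075233-1: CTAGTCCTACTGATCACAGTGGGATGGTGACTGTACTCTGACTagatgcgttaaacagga
Z00036536-1: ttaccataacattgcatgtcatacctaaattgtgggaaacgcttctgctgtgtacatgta
Z00025664-1: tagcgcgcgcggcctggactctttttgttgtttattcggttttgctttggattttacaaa
Z00029506-1: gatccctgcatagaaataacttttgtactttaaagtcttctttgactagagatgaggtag
Z00030512-1: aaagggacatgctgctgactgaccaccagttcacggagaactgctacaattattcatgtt
Z00020037-1: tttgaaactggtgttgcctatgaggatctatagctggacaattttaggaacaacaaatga
Z00071849-1: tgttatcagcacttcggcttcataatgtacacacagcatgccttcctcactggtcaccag
Z00022172-1: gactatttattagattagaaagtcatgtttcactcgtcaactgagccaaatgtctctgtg

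On the selection scale, the smaller of the 2 differences ran from 0.98 to 2.51 over the 150 probes, with a median of 1.20. LY294002 minus control day 3 had a median of 1.30, LY294002 minus standard day 3 a median of 1.50, and RA minus control day 3 ran from -0.29 to 0.29. The last probes kept were Z00063339-1 and Z00035516-1, both at 0.98, and the first left out were Z00045975-1 and Z00066939-1, also at 0.98. The ranking thus has no gap at its end. With each LY294002 array taken alone, 99 of the 150 probes reached the lowest kept value on both arrays and 51 on only 1 of them.

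All values from here on are log2 ratios of sample to reference after normexp background correction and loess, unless the selection scale is named. Z00036536-1 led the ranking. Its log2 ratio was 2.91 and 2.51 on the LY294002 arrays, 0.47 and 0.49 in RA, -0.02 and -0.01 in day 4 colonies, -0.14 and -0.27 in day 7 colonies, 1.84 and 1.78 in passage 10, 0.66 and 0.59 in control day 3, and 0.87 and 0.63 in standard day 3. Both LY294002 arrays stood above the other 12. Passage 10 came next, and both kinds of colony were lowest, near or below the reference. The LY294002 mean was 2.08 above control day 3 and 1.96 above standard day 3 on the log2 scale.

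The overlapping pair Z00040364-1 and Z00075233-1 showed the same order of groups. Z00040364-1 read 2.20 and 1.84 with LY294002, 0.07 and 0.03 in RA, -0.41 and -0.42 in day 4 colonies, -0.65 and -0.53 in day 7 colonies, 0.78 and 0.65 in passage 10, 0.16 and -0.06 in control day 3, and 0.37 and 0.45 in standard day 3. Z00075233-1 read 2.19 and 2.00 with LY294002, 0.01 and 0.00 in RA, -0.46 and -0.49 in day 4 colonies, -0.91 and -0.59 in day 7 colonies, 0.89 and 0.82 in passage 10, 0.09 and 0.02 in control day 3, and 0.57 and 0.53 in standard day 3. For both probes the LY294002 arrays lay above all others and the colony arrays below all others. The spots of Z00040364-1 were not well above background on any colony array and those of Z00075233-1 on no day 4 array and 1 day 7 array, so their low values there are not exact levels.

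Z00025664-1 was the brightest of the 150, with a Cy3 signal of 15.3 on the log2 scale. It read 1.77 and 2.02 with LY294002, 0.16 and 0.19 in RA, -1.51 and -1.50 in day 4 colonies, -1.64 and -1.30 in day 7 colonies, 1.39 and 1.48 in passage 10, 0.26 and 0.34 in control day 3, and 0.82 and 0.71 in standard day 3. Again LY294002 was highest, passage 10 next and the colonies lowest, here well below the reference. This probe was well above background on all 14 arrays.

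Other probes had a different order of groups below LY294002. Z00029506-1 read 3.08 and 3.38 with LY294002, 1.16 and 1.21 in RA, -0.22 and -0.20 in day 4 colonies, 1.77 and 1.54 in day 7 colonies, 0.60 and 1.03 in passage 10, 1.27 and 1.11 in control day 3, and 1.05 and 1.46 in standard day 3. Day 7 colonies were second and day 4 colonies alone fell below the reference. Z00030512-1 read 2.77 and 2.92 with LY294002, 0.30 and 0.34 in RA, 1.99 and 2.02 in day 4 colonies, 1.08 and 1.10 in day 7 colonies, 1.04 and 1.20 in passage 10, 0.48 and 0.42 in control day 3, and 1.01 and 1.02 in standard day 3. Here day 4 colonies were second, and every array was above the reference. In both probes the 2 LY294002 arrays exceeded the other 12.

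Ranks 2, 3, 4, 8 and 11 were held by Z00048092-1, Z00057165-1, Z00061660-1, Z00027870-1 and Z00014961-1. On the selection scale their LY294002 means were 2.48, 2.89, 2.18, 1.97 and 1.75 above control day 3. After loess they were 0.35, 1.39, 0.90, 0.96 and 0.38 above it. Some high ranks rested on dim spots. Z00071819-1, at rank 5, was well above background on the 2 LY294002 arrays and on no other. Its LY294002 mean was at least 1.06-fold that of standard day 3, where the spots were not well above background. Such lower limits compare Cy3 signals normalised between arrays, with the dim group set at the higher of its own signal and the lowest signal well above background on that array, and they carry any dye bias because no dyes were swapped. A limit is given only where it does not exceed the fold of the loess ratios. Of the 50 probes not well above background on either standard day 3 array, 46 had such a Cy3 limit. In 9 of these it exceeded the ratio's fold. The other 37 had limits with a median of 1.09-fold and a maximum of 1.62-fold. Of the 8 probes not well above background in control day 3, Z00071819-1 among them, 6 had a Cy3 limit above the ratio's fold, so no limit is given for those.

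Z00054699-1, at rank 9, rested on 1 array. On the selection scale it stood at 0.21 on the first LY294002 array and 3.05 on the second, against means of -0.64 in control day 3 and -0.15 in standard day 3. The second spot carried the scanner software's outlier flag and was left out of the loess values. There the remaining array read -0.15, against -0.67 and -0.65 in control day 3 and -0.20 and -0.21 in standard day 3. It was the 1 probe of the 150 with a missing array value.

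As a group the 150 were dim. Their median Cy3 signal on the LY294002 arrays was 7.53 on the log2 scale, against 9.21 over the 15548 probes that could have been chosen. After loess, LY294002 minus control day 3 had a median of 0.60 over the 150 and LY294002 minus standard day 3 a median of 0.71. Over all 31053 tested probes these medians were 0.00 and 0.01. On the selection scale the medians of the dimmest, middle and brightest 50 were alike, at 1.27, 1.37 and 1.30 for LY294002 minus control day 3. After loess they were 0.27, 0.61 and 1.00. The difference between the 2 LY294002 arrays had a median of 0.13 over 149 of the probes and 0.08 over the eligible ones. Both the background correction and the normalisation differ between the 2 scales, and the part of each in these values was not tested.

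After loess, 132 of the 150 were called higher with LY294002 than in control day 3, where 24.5% of all tested probes were, and 126 higher than in standard day 3, where 23.2% were. Nothing is read from these counts, since the same arrays chose the probes. Both LY294002 arrays exceeded the other 12 arrays in 107 of 149 probes, beside 7.9% of all tested probes, again on arrays that made the choice. LY294002 had the highest group mean in 131 probes, day 7 colonies in 9, day 4 colonies in 7 and passage 10 in 3. Among the 131, second place fell to day 7 colonies and to passage 10 in 33 each, to RA in 29, to day 4 colonies in 22, to control day 3 in 10 and to standard day 3 in 4. The choice itself set LY294002 above both untreated cultures and RA near control day 3. These places follow from it in part, and nothing is read from them.

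Set against the reference, 129 of the 150 were at or above it with LY294002. The number above it was 75 in RA, 65 in day 4 colonies, 70 in day 7 colonies, 71 in passage 10, 66 in control day 3 and 61 in standard day 3. For 27 probes the LY294002 mean alone lay above the reference, and 20 of these were so detected on all arrays of control and standard day 3. A further 29 were above the reference in all 7 groups, and 19 were below it in all 7. The LY294002 counts rest on arrays that made the choice and have no share over all probes beside them. The 29 and the 19 show only that chosen probes lay on either side of the reference.

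Detection also varied. All 150 were well above background on both LY294002 arrays by the choice itself, and 130 were on both control day 3 arrays, 122 in RA, 102 in day 7 colonies, 84 in standard day 3, 82 in passage 10 and 80 in day 4 colonies. As shares these run from 53.3% in day 4 colonies to 86.7% in control day 3. Of the eligible probes, 99.6% were so detected in control day 3, 98.3% in RA, 94.8% in day 7 colonies, 86.4% in standard day 3, 85.2% in passage 10 and 87.2% in day 4 colonies. Of the 150, 67 were well above background on all 14 arrays. The arrays of day 4 colonies, passage 10 and standard day 3 also had the lowest shares of all spots well above background, between 56.1% and 58.5%, and the part of this in the detection of the 150 was not tested. The probes had a median GC content of 45%, as had all eligible probes. A reading frame free of stop codons was present in 82% of them, against 83.6% of eligible probes.

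The arrays of day 4 colonies, day 7 colonies and passage 10 played no part in the choice, so differences between these 3 groups were tested. The fit, however, pooled the spread of each probe over all arrays, including those that made the choice. That spread enters every standard error and call, in day 7 against day 4 colonies as well. Between the LY294002 arrays the chosen probes differed by a median of 0.13 and the eligible ones by 0.08. Each passage 10 array also shared its slide and scan day with a standard day 3 array, which the choice used. None of the 3 comparisons is therefore fully independent of the choice, and the part of this in their counts was not tested. The first question is how day 4 colonies differed from passage 10. By limma, 27 of the 150 rose and 40 fell in day 4 colonies, which is 18% and 26.7%, beside 25.8% higher and 24.4% lower among all tested probes. The other 83 did not pass the threshold (a Benjamini-Hochberg adjusted p of 0.05 over all tested probes). Of the 150, 16 were among the tested probes only through their LY294002 arrays, and 3 of these were called here, 4 in day 7 colonies against passage 10 and 1 in day 7 against day 4 colonies. Changes over 2-fold were 3 rises (2.0%) and 12 falls (8.0%), beside 3.97% and 3.62% of all tested probes. The median difference of the 150 was -0.02 (-0.22 over the 81 in the authors' value table), and of all probes 0.01. In 1 or both of the groups, 92 of the 150 had both arrays well above background, and 60 of these (65.2%) were called, beside 61% of all probes so detected. Among the 92, 26 rose (28.3%) and 34 fell (37.0%), beside 31.4% and 29.6%. In both counts rises were a smaller share and falls a larger share than among all probes, and these differences were not tested. Rises and falls were nearly equal among the 67 probes well above background on all 14 arrays. There 22 rose and 24 fell, and 63.9% of all such probes were called.

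The largest falls in day 4 colonies were those of Z00025664-1 (log2 difference -2.94, SE 0.11, limma adjusted p = 3.14e-10), Z00036536-1 (-1.82, SE 0.11, limma adjusted p = 3.81e-08) and Z00020037-1 (-1.54, SE 0.06, limma adjusted p = 8.89e-10). Z00020037-1 read 2.73 and 2.64 with LY294002, 0.22 and 0.19 in day 4 colonies and 1.36 to 1.76 on the other arrays, so that only day 4 colonies stood low. Z00040364-1, which was not well above background in day 4 colonies, was at least 2.17-fold lower there than in passage 10 (limma adjusted p = 1.94e-06). Its overlapping partner Z00075233-1, also not well above background there, fell too (limma adjusted p = 1.28e-07).

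The largest rises in day 4 colonies were smaller. Z00025352-1 read 0.50 and 0.36 in day 4 colonies, against -0.76 and -0.78 in passage 10 (difference 1.20, SE 0.10, limma adjusted p = 3.62e-07). With LY294002 it read -0.28 and -0.27, so here day 4 colonies were the highest group and the only one above the reference. Z00008097-1 rose by 1.13 (SE 0.20, limma adjusted p = 0.00042) and Z00078186-1 by 1.05 (SE 0.16, limma adjusted p = 0.000116). Day 4 colonies and the second passage 10 array shared a scan day. With the first passage 10 array left out, which keeps that comparison within the scan day, 22 of the 150 rose and 38 fell, where 43.2% of all probes were called. Both day 4 arrays lay alone on slide 4, so slide and day 4 colonies cannot be told apart.

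In day 7 colonies, 30 of the 150 rose against passage 10 and 44 fell, or 20% and 29.3%, beside 29.1% higher and 26.6% lower among all tested probes. With median centring in place of loess, 29 rose and 25 fell, where 34.5% of all probes were called. In the authors' value table, which holds 81 of the 150, 12 rose and 26 fell, where 45.7% of all probes were called. Changes over 2-fold were 4 rises (2.67%) and 8 falls (5.33%), beside 5.97% and 3.57%. The median difference was -0.02, against 0.01 over all probes. Of 107 probes with such detection in 1 or both of the groups, 62 (57.9%) were called, beside 61.2% of all probes so detected. Among the 107, 29 rose (27.1%) and 33 fell (30.8%), beside 32.6% and 28.7%. Rises were a smaller share than among all probes in both loess counts and falls a slightly larger one, and these differences were not tested. Falls did not outnumber rises with median centring. Nor did they among the 67 probes well above background on all 14 arrays, where 22 rose and 21 fell and 67.4% of all such probes were called. They did in the authors' value table. They also did on the selection scale, where 33 rose and 40 fell and 56.8% of all probes were called. For these alternatives the share of all probes covers both directions together, so the balance of rises and falls has no background beside it. Day 7 colonies had a slide and a scan day of their own, so slide and group cannot be told apart.

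The same leading probes fell in both kinds of colony, which share passage 10 as their comparison. Z00025664-1 fell by 2.90 in day 7 colonies (SE 0.11, limma adjusted p = 2.01e-10), Z00036536-1 by 2.01 (SE 0.11, limma adjusted p = 1.21e-08) and Z00075233-1 by 1.61 (SE 0.10, limma adjusted p = 1.74e-08, above background on 1 day 7 array). The largest rises were those of Z00046358-1, by 1.69 (SE 0.07, limma adjusted p = 7.11e-10), Z00071849-1, by 1.49 (SE 0.09, limma adjusted p = 1.71e-08), and Z00046811-1, by 1.14 (SE 0.11, limma adjusted p = 2.1e-06). Z00046358-1 read 0.86 and 0.92 with LY294002, 2.00 and 1.94 in day 7 colonies, 1.13 and 1.04 in day 4 colonies and 0.25 and 0.30 in passage 10. It is one of the probes in which a colony group, not LY294002, was highest.

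Day 7 and day 4 colonies were compared with each other. Of the 150, 40 were higher and 27 lower in day 7 colonies (26.7% and 18%), beside 27.4% and 25.4% of all tested probes. With median centring 29 were higher and 12 lower, where 33.2% of all probes were called, and by the authors' tabulated values 21 were higher and 7 lower, where 42.9% were. Changes over 2-fold were 4 rises (2.67%) and 3 falls (2.0%), beside 4.36% and 2.61%. Of 104 probes with such detection in 1 or both of the groups, 57 (54.8%) were called, beside 58.4% of all probes so detected. Among the 104, 37 rose (35.6%) and 20 fell (19.2%), beside 30.9% and 27.5%. Falls made up a smaller share than among all probes, a difference that was not tested.

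Z00029506-1 rose by 1.86 in day 7 colonies (SE 0.16, limma adjusted p = 5.63e-07), Z00071849-1 by 1.78 (SE 0.09, limma adjusted p = 5.81e-09) and Z00020037-1 by 1.22 (SE 0.06, limma adjusted p = 9.59e-09). Z00071849-1 read 2.03 and 1.98 with LY294002, 1.72 and 1.50 in day 7 colonies, -0.14 and -0.20 in day 4 colonies and 0.12 and 0.12 in passage 10. On the remaining arrays it read 1.20 and 1.16 in RA, 0.91 and 1.15 in control day 3, and 0.13 and 0.20 in standard day 3. Its LY294002 and day 7 arrays were thus the highest of the arrays. The largest fall was that of Z00022172-1, by 1.82 (SE 0.12, limma adjusted p = 8.32e-08). It read 0.25 and 0.69 with LY294002, -1.82 and -1.93 in day 7 colonies, -0.02 and -0.09 in day 4 colonies and -0.92 and -0.66 in passage 10. Z00008097-1 fell by 1.07 (SE 0.20, limma adjusted p = 0.000619) and Z00025352-1 by 1.02 (SE 0.10, limma adjusted p = 1.74e-06).

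Of the 150, 12 share a run of 20 or more bases with another probe on the array. The partners that were not chosen number 11. On the selection scale 9 of these 11 had both LY294002 differences above 0, and after loess 5 had. Nothing is read from these counts, since the same arrays made the choice and no share over all probes is set beside them. Z00071819-1 is shown here because another probe, Z00070958-1, carries the identical 60 bases.
Z00071819-1: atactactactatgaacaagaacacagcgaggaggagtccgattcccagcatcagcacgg
On the selection scale Z00071819-1 was 2.13 above control day 3 and 2.33 above standard day 3, and Z00070958-1 was 0.55 and 0.10 above them. After loess the differences were 0.24 and 0.26 for Z00071819-1, and 0.00 and -0.07 for Z00070958-1. The spots of Z00070958-1 were not well above background on either LY294002 array. Those of Z00071819-1 were not well above background in either untreated culture. The rise of Z00071819-1 was thus not repeated at its size by a probe of the same bases. With spots this dim, the values do not show which of the 2 is nearer the true level.

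The second overlapping pair among the 150, Z00071493-1 and Z00072559-1, shares 35 bases. Both were dim on the LY294002 arrays, with Cy3 signals of 6.5 and 6.3 on the log2 scale. LY294002 minus control day 3 was 0.27 for Z00071493-1 and 0.21 for Z00072559-1 after loess, against 1.37 and 0.99 on the selection scale. For Z00040364-1 and Z00075233-1, whose signals were 8.9 and 9.3, it was 1.97 and 2.04 after loess, against 2.88 and 2.74 on the selection scale. The brighter overlapping pair thus kept most of its difference after loess and the dimmer pair little of it.

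One probe matched a gene's start region. In Z00072762-1 the capitals mark 46 bases that also occur, on the opposite strand, in the 300-base RefSeq window around the start of Ipw (GRCm38.p6, chr7:59678829-59679128), a long non-coding RNA gene of the imprinted Prader-Willi region.
Z00072762-1: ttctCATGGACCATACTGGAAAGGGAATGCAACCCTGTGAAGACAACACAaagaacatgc
The match covers only part of the probe, so it names a resemblance and not the probe's target. None of the other 149 probes had 30 or more bases in a RefSeq start window. After loess, the LY294002 mean of Z00072762-1 was 0.09 above control day 3, which did not pass the threshold (limma adjusted p = 0.324). That mean was at least 1.15-fold that of standard day 3, where the spots were not well above background. Z00071232-1, Z00071700-1 and Z00072551-1 share runs of 51, 39 and 28 bases with this probe. After loess their LY294002 means differed from control day 3 by -0.10, -0.09 and -0.003. From standard day 3 they differed by 0.22, 0.08 and 0.18, of which only the first passed the threshold (limma adjusted p = 0.0339). Z00072762-1 was singled out after its values were seen.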

How the data were processed

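The scanner files hold intensity values per spot and channel, not normalized by the authors, and log10 ratios of Cy5 over Cy3. Per the file headers, both came from version 9.5.1.1 of the Agilent extraction software. The deposited value table holds log10 values for 25030 probes. It follows minus the log10 ratio (r of 0.990 to 0.999 per array after centring each probe), with column medians of 2.24 to 2.32. The constant behind it is not given in the sources used here.

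Ratios used here were made from the mean signals with normexp (offset 50) and loess in limma 3.58.1 (R 4.3.3, statmod 1.5.0, version 1.17.8 of data.table). Outlier spots, 1 to 24 an array, were left out. No Cy3 spot was saturated. Group means were fitted with lmFit and eBayes over all 14 arrays and the 31053 probes that had both arrays of any group well above background in Cy3, and the steps were tested on simulated data. The selection scale is minus the deposited log ratio in log2 units, centred on each array's median. The 150 probes and the lists were chosen with earlier results of these data known, and gene lists could not be used without gene names. Probes named are the 12 highest of the ranking, those next to its end, up to 3 largest rises and falls per comparison whose arrays did not overlap, and overlapping probes. Alternatives changed the normalization, the value source, the detection filter, the block and the arrays left out. Probe sequences are those of the scanner files.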

Additional observations from a re-analysis of the deposited data

How the results depend on the processing

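Groups of 2 arrays, dim spots and a single slide for LY294002 limit these results. Ranking by loess values in place of the scanner software's ratios kept 58 of the 150 probes, and in an alternative chosen after seeing the data the 150 so ranked had 68.7% called in day 4 colonies against passage 10, in place of 44.7%, beside 50.3% of all probes. Median centring without loess called 44 of the 150 in day 4 colonies against passage 10 (18 higher, 26 lower) and 41 in day 7 against day 4 colonies (29 higher, 12 lower), where 26.8% and 33.2% of all probes were called. The authors' value table, which holds 81 of the 150, called 46 in day 4 colonies against passage 10 (14 higher, 32 lower; 43.3% of all probes), 38 in day 7 colonies against passage 10 (45.7%) and 28 in day 7 against day 4 colonies (21 higher, 7 lower; 42.9%). For LY294002 it called 72 against control day 3 (43.3%) and 73 against standard day 3 (38.8%). With probes well above background on all 14 arrays, 67 of the 150 entered. Of these, 46 were called in day 4 colonies against passage 10 (63.9% of all such probes). In day 7 colonies 43 were called against passage 10 (67.4%) and 44 against day 4 colonies (65.0%). For LY294002, 67 were called against control day 3 (63.5%) and 66 against standard day 3 (57.7%). Median differences of the 150 moved by more than the spread between arrays to -0.22 in day 4 colonies against passage 10 and 0.23 in day 7 against day 4 colonies with the value table, and to 0.08 in day 7 colonies against passage 10 and 0.21 in day 7 against day 4 colonies with the processed log ratio. Fewer probes enter under the value table and the all-array filter, and the cause of the other shifts was not tested. With 1 array of a group left out in turn, the median difference of the 150 was -0.06 to -0.02 in day 4 colonies against passage 10. It was -0.04 to 0.02 in day 7 colonies against passage 10 and 0.01 to 0.03 in day 7 against day 4 colonies. With the replicate block 70, 76 and 68 of the 150 were called in these 3 comparisons, beside 50.8%, 56.2% and 53.4% of all probes. Same-numbered arrays deviated together at r of only -0.09 to 0.11 and no label ties them. With slide as a random block 69, 75 and 68 were called, beside 50.9%, 56.5% and 53.8% of all probes. With scan day 67, 74 and 66 were called, beside 50.2%, 55.1% and 52.1%. Of 208 refits of the named probes in the 3 comparisons 207 stayed past the threshold in the same direction, and Z00008097-1 in day 7 against day 4 colonies did not with median centring (difference -0.76, limma adjusted p = 0.0722).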
